A study of Glycine max with 8 samples.

Results

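Peaks of the soybean transcription factors (TFs) SNAP1, SNAP2, SNAP3 and SNAP4 were examined at genes for small nuclear RNA (snRNA), small nucleolar RNA (snoRNA) and ribosomal RNA (rRNA). A gene of these 3 classes was selected when a peak summit lay inside it or within 200 bp of it in at least 1 of 8 libraries, and when no tRNA gene lay within 500 bp. Of 2255 annotated genes of the 3 classes on the 20 chromosomes, 84 met this rule. They comprised 56 snRNA genes, 25 snoRNA genes and 3 rRNA genes. Because the genes were chosen by their peaks, the presence of a peak is a description of them and not a result, and it was not tested. The later tests among TFs use the same summits that selected the genes, under a rule that treated all 8 libraries alike.

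The data were chromatin immunoprecipitation sequencing (ChIP-seq) peak lists from transgenic soybean hairy roots with nodules, in the Williams 82 background, in which 1 SNAP TF was expressed with a FLAG tag under the soybean pM4 promoter. The groups were FLAG-SNAP1, FLAG-SNAP2, FLAG-SNAP3 and FLAG-SNAP4, each with 2 biological replicates. All 4 share the promoter, the vector, the K599 strain used for hairy root transformation and the FLAG antibody. The archive labels give the tissue as root nodule and call each genotype a SNAP mutant, whereas the methods describe a tagged TF, and the methods are followed here. No library without a tagged TF and no input library was analysed, no nitrogen level is given for the hairy roots, and peak lists of DNA do not allow the tissue to be checked by marker genes.

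The 3 classes belong to the basic machinery of gene expression and are expressed in every cell. The snRNAs are the RNA part of the spliceosome, which removes introns. In plants most major spliceosomal snRNAs are transcribed by RNA polymerase II, while U6 and also the U3 snoRNA are transcribed by RNA polymerase III, from promoters with an upstream sequence element and a TATA box. Most snoRNAs guide chemical modification of rRNA, U3 is needed to cut the rRNA precursor, and many plant snoRNAs are made from clusters or introns and not from promoters of their own. The large rRNAs come from long tandem arrays read by RNA polymerase I, and 5S rRNA from separate arrays read by RNA polymerase III. NAC proteins such as the SNAPs are known as regulators of protein-coding genes.

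The annotation used gives each gene an identifier, a class and a length, but not the family of the RNA. Genes were therefore grouped by length within a class, with limits drawn after lengths and peaks had been seen. U6 is the shortest and U2 the longest of the major spliceosomal snRNAs in plants, as background, and which family a length group holds was not tested. No sequence is shown because no table of sequences was used.

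The 3 classes differed widely in the share of their genes with a peak. A summit in at least 1 library was found at 42.1% of the 133 snRNA genes, 1.5% of the 1666 snoRNA genes without a tRNA neighbour, and 0.67% of the 448 rRNA genes, against 17.3% of all 58643 annotated genes, 18.6% of protein-coding genes and 4.1% of miRNA genes. A summit in all 8 libraries was found at 8 snRNA genes and 5 snoRNA genes, or 6.02 and 0.3% of their classes, against 1.74% of all genes, 0.991% of protein-coding genes and 0.759% of miRNA genes. Genes with a tRNA gene within 500 bp were left out of the 3 classes but not of the protein-coding, miRNA and all-gene shares. With such genes kept, 33 of 1674 snoRNA genes (1.97%) had a summit in at least 1 library and 9 in all 8. The shares of all genes include 709 tRNA genes, of which 95.6% had a summit in at least 1 library. These tRNA genes made up 492 of the 1021 genes with a summit in all 8 libraries. No rRNA gene had a peak in all 8. The classes differ in length, with a median of 157 bp for snRNA genes and 3351 bp for protein-coding genes, so the window searched was shorter for snRNA genes. When the genes were moved by 20 kb along the chromosome, a summit lay at 2 snRNA positions (1.5%), 13 snoRNA positions (0.78%) and 1 rRNA position. The 84 genes stood for 81 sites, since 6 of them shared a peak with a neighbour of the same list.

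Within the classes, the shares differed by gene length. Among snRNA genes, those of 100 to 105 bp had a peak in 12 of 18 cases and in all 8 libraries in 6 cases. All 6 of these genes were exactly 103 bp long, a length shared by 14 snRNA genes, of which 11 had a peak. Genes of 112 to 127 bp had a peak in 12 of 34 cases and in all 8 libraries in 1 case, genes of 147 to 154 bp in 2 of 14 cases, genes of 157 to 164 bp in 12 of 31 cases, and genes of 189 to 198 bp in 18 of 36 cases, with 1 in all 8. Among snoRNA genes, the 10 genes of 203 to 228 bp had the highest share, with a peak at 8 of them and with 5 in all 8 libraries. Of the 495 genes of 64 to 185 bp of any length other than 107 bp, 17 had a peak, 15 of them in 1 library and none in more than 2. The most frequent length, 107 bp, was shared by 1161 snoRNA genes, and none of these had a summit within 500 bp in any library. The authors kept uniquely mapped reads only, which removes reads from genes with near-identical copies, so a lack of peaks at such genes cannot be told apart from a lack of reads that could be placed.

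**Figure D1:**
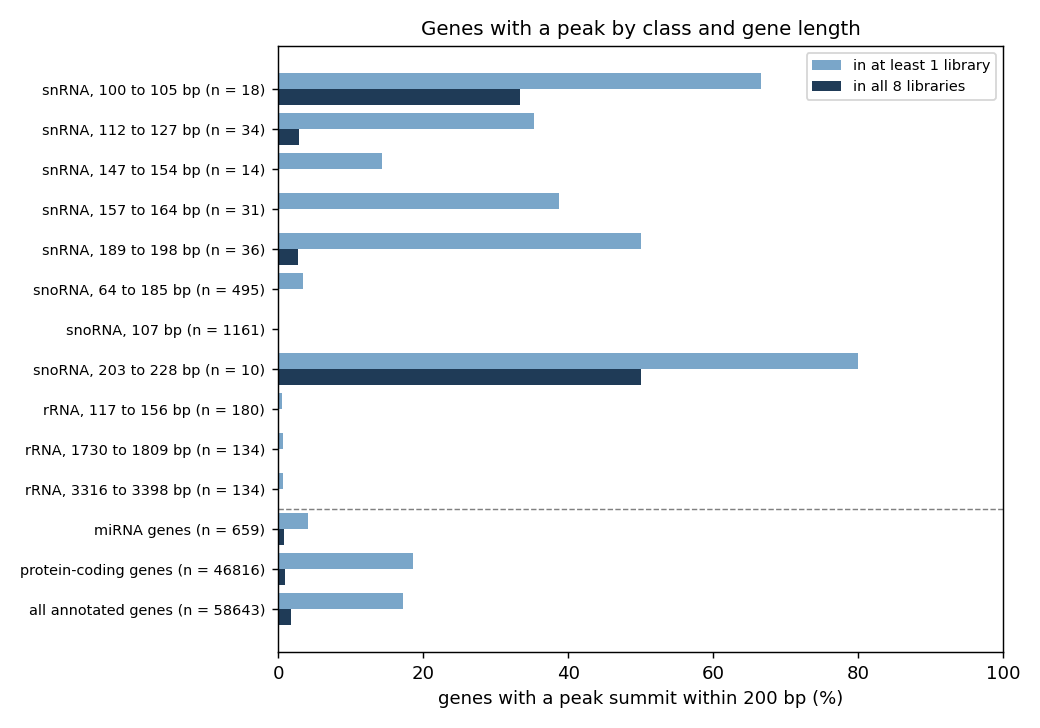
Share of genes (%) with a peak summit within 200 bp in at least 1 library (light bars) and in all 8 libraries (dark bars), for each class and length group and, under the dashed line, for miRNA genes, protein-coding genes and all genes. The snRNA genes of 100 to 105 bp (12 and 6 of 18 genes) and the snoRNA genes of 203 to 228 bp (8 and 5 of 10 genes) have the longest dark bars, and the 1161 snoRNA genes of 107 bp have none. The gene sets under the dashed line were not filtered for tRNA neighbours.

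Among the 84 genes, 36 had a peak in 1 library, 11 in 2, 4 in 3, 6 in 4, 7 in 5, 5 in 6, 2 in 7 and 13 in 8. The distribution was thus high at both ends. The same distribution over all genes is not given here, so this shape cannot be read as a trait of these genes. Of the 33 genes with a peak in 4 or more libraries, 23 were snRNA, 8 snoRNA and 2 rRNA genes. Peaks at the 13 genes found in every library were also stronger. The strength is given here by fold enrichment, the ratio that MACS2 computes of the read pileup at the summit to its own estimate of the background, and by the percentile of this ratio among all peaks of the same library. At the 13 genes the median over 104 peaks was 5.66-fold, at percentile 80.6, against 4.00-fold and percentile 35.2 at the 36 genes found in 1 library. A stronger peak is more easily called in each library, so the number of libraries and the strength are not independent. None of the 84 genes had a peak among the 100 strongest of any library, 9 reached the first 500 and 19 the first 1000.

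The snRNA genes of 103 bp held the strongest snRNA peaks. At LOC112999865 the fold enrichment was 7.21 and 6.51 in FLAG-SNAP1, 7.40 and 6.32 in FLAG-SNAP2, 8.34 and 7.64 in FLAG-SNAP3, and 5.61 and 5.98 in FLAG-SNAP4 (replicates 1 and 2 in each case). Its mean was 6.88 ± 0.922 (SD, n = 8 libraries). Both FLAG-SNAP4 libraries gave the lowest values and both FLAG-SNAP3 libraries the highest, but these ratios were not compared by a test, since the depth of each library is not given. In FLAG-SNAP1 replicate 1 the peak ran from 5039942 to 5040397 on chromosome 16 of the Wm82 a4.v1 genome, and its summit lay 29 bp outside the gene.

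At LOC113000502, on chromosome 19, the fold enrichment was 7.41 and 8.74 in FLAG-SNAP1, 8.16 and 7.58 in FLAG-SNAP2, 6.35 and 5.75 in FLAG-SNAP3, and 5.19 and 5.16 in FLAG-SNAP4, and the mean was 6.79 ± 1.37 (SD, n = 8). By this ratio FLAG-SNAP1 and FLAG-SNAP2 were high and FLAG-SNAP4 was low. As percentiles within the library, FLAG-SNAP3 replicate 2 was lowest, at 66.4, against 85.2 and 79.4 in FLAG-SNAP4. This gene overlaps the protein-coding gene LOC100784365, so its peak (from 35070641 to 35071176 in FLAG-SNAP1 replicate 1) cannot be assigned to either gene alone. Its peak in FLAG-SNAP2 replicate 1 held the highest rank of any peak at the 84 genes, 281 by fold enrichment within the library.

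LOC113000647, also on chromosome 19, lay 5077 bp from the nearest gene of another kind, the largest such distance among the 13 genes found in all 8 libraries. It was not isolated from its own kind, since it alone of the 13 genes had another snRNA, snoRNA or rRNA gene within 2 kb. Its peak in FLAG-SNAP1 replicate 1, from 34632656 to 34633271, had its summit inside the gene. The fold enrichment was 6.54 and 6.55 in FLAG-SNAP1, 6.45 and 6.56 in FLAG-SNAP2, 6.49 and 7.70 in FLAG-SNAP3, and 3.91 and 4.53 in FLAG-SNAP4, and the mean was 6.09 ± 1.24 (SD, n = 8). The other 6 libraries lay above both FLAG-SNAP4 libraries. The remaining 103-bp genes with a peak in all 8 libraries were LOC112998894 on chromosome 13 (5.85 ± 0.829), LOC113000501 on chromosome 19 (5.72 ± 0.711) and LOC113002008 on chromosome 6 (5.17 ± 0.921), each as mean ± SD over 8 libraries. Neighbours in this order of 6 genes differed by less than 1 SD. A gene outside the naming rule, LOC112999674 on chromosome 15, had a peak in every library except FLAG-SNAP4 replicate 1, with a mean of 6.58 ± 0.928 (SD, n = 7).

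In each library between 6 and 12 of the 18 snRNA genes of 100 to 105 bp had a peak, the fewest in FLAG-SNAP4 replicate 1 and the most in FLAG-SNAP2 replicate 2. The median percentile of these peaks ranged from 77.6 in FLAG-SNAP3 replicate 2 to 88.9 in FLAG-SNAP2 replicate 1. In all 8 libraries they thus ranked well above the middle of the list. They made up 56.2 and 72.7% of the snRNA genes with a peak in the replicates of FLAG-SNAP3, against 33.3 to 35.7% in the libraries of the other 3 TFs. The FLAG-SNAP3 libraries had 16 and 11 snRNA genes with a peak and the other libraries 18 to 34, and this difference in share was not tested. Of the 14 genes of exactly 103 bp, 3 had no peak, and their nearest summit in any library was 1915, 4575 and 43363 bp away.

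At the longer snRNA genes peaks were weaker, and fewer genes had them in all libraries. In the group of 112 to 127 bp, LOC112998422 on chromosome 11, of 127 bp, had a peak in all 8 libraries. Its fold enrichment was 6.28 and 5.87 in FLAG-SNAP1, 7.41 and 6.13 in FLAG-SNAP2, 6.41 and 4.87 in FLAG-SNAP3, and 3.53 and 4.47 in FLAG-SNAP4 (5.62 ± 1.24, SD, n = 8). By this ratio both FLAG-SNAP4 libraries were lowest. As percentiles within the library, FLAG-SNAP4 stood at 25.1 and 60.7, and FLAG-SNAP3 replicate 2 lay between them at 41.1. The gene overlaps the protein-coding gene LOC100783848. LOC112997905 on chromosome 1, of 119 bp, was the next in this group, with a peak in 5 libraries and a mean of 4.72 ± 0.542 (SD, n = 5). It had no peak in either FLAG-SNAP3 library or in FLAG-SNAP4 replicate 1.

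Of the genes of 157 to 164 bp, none had a peak in all 8 libraries, and the median percentile of their 37 peaks was 31.5. LOC113001336 on chromosome 3, of 161 bp, had a peak in 6 libraries, with a mean of 3.88 ± 0.605 (SD, n = 6) and none in FLAG-SNAP3. Neither replicate of FLAG-SNAP3 held many of these genes, with 2 in replicate 1 and 0 in replicate 2. Between 4 and 9 had a peak in each library of the other TFs. In the group of 147 to 154 bp, LOC113002494 (5.52-fold, FLAG-SNAP2 replicate 1) and LOC113000273 (3.81-fold, FLAG-SNAP2 replicate 2) each had a peak in 1 library.

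The group of 189 to 198 bp had the most genes with a peak among the snRNA groups, 18, and a median percentile of 48.3 over 51 peaks. LOC113000068 on chromosome 17, of 196 bp, was found in all 8 libraries, with a fold enrichment of 5.55 and 6.11 in FLAG-SNAP1, 4.14 and 5.83 in FLAG-SNAP2, 5.05 and 4.56 in FLAG-SNAP3, and 4.36 and 4.39 in FLAG-SNAP4, with an SD of 0.749 over the 8 libraries. By this ratio FLAG-SNAP1 was above FLAG-SNAP3 and FLAG-SNAP3 above FLAG-SNAP4 in both replicates. The replicates of FLAG-SNAP2 spanned all 4 values of FLAG-SNAP3 and FLAG-SNAP4. As percentiles within the library, FLAG-SNAP4 stood at 64.3 and 57.3 and FLAG-SNAP3 at 57.8 and 29.1, so the values of these TFs overlapped. LOC112998204 on chromosome 10, also of 196 bp, had a mean of 5.53 ± 0.729 (SD, n = 6) and no peak in FLAG-SNAP3.

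LOC113000068 lay in a group of 3 snRNA genes within 6.71 kb. The others were LOC113000035, of 161 bp, with a peak in 5 libraries, and LOC113000057, of 196 bp, with a peak in 6. The peak counted at LOC113000057 in FLAG-SNAP1 replicate 1, from 2993464 to 2994732, also ran over LOC113000035. No other group of 3 or more neighbouring snRNA genes was like this group, and pairs were not considered. There were 13 groups of 3 or more snRNA genes with gaps of up to 20 kb in the annotation, and in the other 12 no gene had a peak in 4 or more libraries. On chromosome 3, a group of 4 snRNA genes of 161, 196, 151 and 161 bp within 8.71 kb had no peak in any library.

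**Figure D2:**
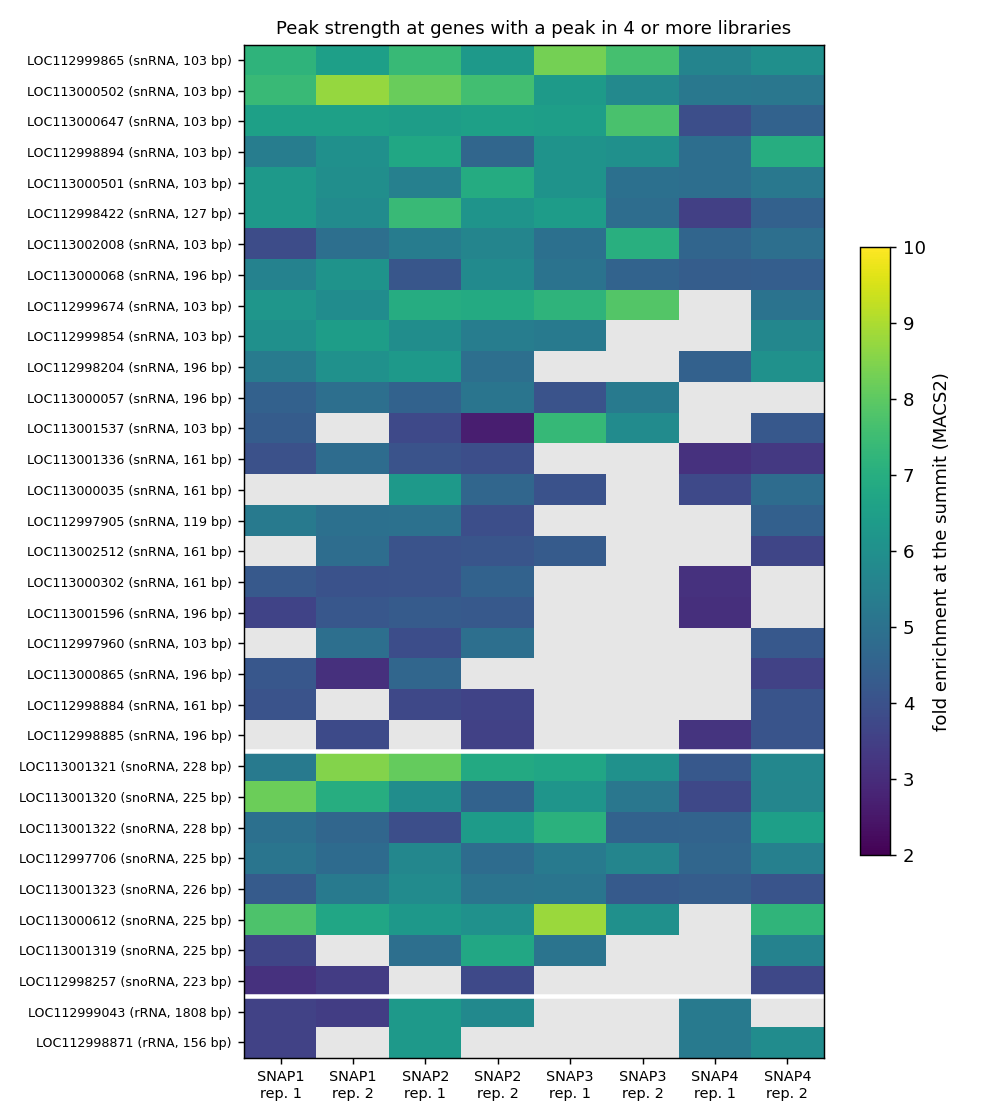
Fold enrichment at the summit of the strongest peak (colour scale, a ratio from MACS2) at the 33 genes found in 4 or more libraries. Genes are in lines by class and the 8 libraries in columns, and grey means no summit within 200 bp of the gene. The first 8 lines and the 5 upper snoRNA lines are filled in all 8 libraries, and most grey cells lie in the FLAG-SNAP3 columns and in FLAG-SNAP4 replicate 1.

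The long snoRNA genes had peaks of similar strength to the short snRNA genes, with a median of 5.28-fold over 56 peaks, against 5.93-fold over 73 peaks at snRNA genes of 100 to 105 bp. At LOC113001321 on chromosome 3, of 228 bp, the fold enrichment was 5.29 and 8.52 in FLAG-SNAP1, 8.11 and 6.87 in FLAG-SNAP2, 6.74 and 6.06 in FLAG-SNAP3, and 4.22 and 5.70 in FLAG-SNAP4, and the mean was 6.44 ± 1.43 (SD, n = 8). The replicates of FLAG-SNAP1 differed more from each other than the means of the other TFs did. Its peak in FLAG-SNAP1 replicate 1 ran from 35086130 to 35086558. At LOC113001320, also on chromosome 3 and of 225 bp, the values were 8.21 and 6.98 in FLAG-SNAP1, 5.94 and 4.52 in FLAG-SNAP2, 6.18 and 5.19 in FLAG-SNAP3, and 3.75 and 5.66 in FLAG-SNAP4 (SD over 8 libraries, 1.39). FLAG-SNAP1 was highest at this gene, and the other 3 TFs overlapped. The gene lay 2952 bp from the nearest gene of another kind, and its peak in FLAG-SNAP1 replicate 1 ran from 35563997 to 35564378.

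The other long snoRNA genes with a peak in all 8 libraries were LOC113001322 (5.32 ± 1.17) and LOC113001323 (4.79 ± 0.630) on chromosome 3 and LOC112997706 (5.19 ± 0.403) on chromosome 19. LOC112997706 varied least among the 13 genes, between 4.65-fold in FLAG-SNAP4 replicate 1 and 5.72-fold in FLAG-SNAP2 replicate 1. It overlaps a pseudogene. Outside the naming rule, LOC113000612 on chromosome 19, of 225 bp, had the highest mean of the 84 genes, 6.98 ± 1.04 (SD, n = 7), and lacked a peak in FLAG-SNAP4 replicate 1 alone. LOC113001319 had a peak in 5 libraries, and LOC112998257, the only one on chromosome 10, in 4. The 5 long snoRNA genes with a peak on chromosome 3 had their summits within 541 kb. The 2 long snoRNA genes without a peak were LOC113001324 on chromosome 3, the shortest of the group at 203 bp, and LOC113000613 on chromosome 19, and their nearest summits were 5944 and 8730 bp away. The median percentile of the peaks in this group ranged from 57.2 in FLAG-SNAP3 replicate 2 to 86.3 in FLAG-SNAP2 replicate 1, with 5 to 8 of the 10 genes in each library.

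Peaks at the shorter snoRNA genes were scattered and weak. Only LOC112999439 on chromosome 14, of 102 bp, and LOC113002466 on chromosome 8, of 98 bp, had a peak in 2 libraries, both times in the 2 replicates of the same TF. LOC112999439 had 4.82- and 4.87-fold in FLAG-SNAP1 and overlaps a protein-coding gene. LOC113002466 had 4.28- and 3.03-fold in FLAG-SNAP2, with summits 39 and 177 bp from the gene. Of the 17 shorter snoRNA genes with a peak, 15 had it in 1 library. The count of 17 was 11 without FLAG-SNAP1 replicate 1, 6 at a q-value of 0.0001 and 3 when each library was reduced to its 3611 strongest peaks. After the 20 kb shift, 7 positions of this length group had a summit.

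The 3 rRNA genes with a peak all lay on chromosome 13, where 406 of the 448 rRNA genes are annotated within 3292 kb. LOC112999043, of 1808 bp, had a peak in 5 libraries, with 3.58- and 3.45-fold in FLAG-SNAP1, 6.32- and 5.79-fold in FLAG-SNAP2 and 5.31-fold in FLAG-SNAP4 replicate 1. It overlaps a protein-coding gene. LOC112998871, of 156 bp, had 3.58-fold in FLAG-SNAP1 replicate 1, 6.32-fold in FLAG-SNAP2 replicate 1, and 5.31- and 5.88-fold in FLAG-SNAP4. In the 3 libraries in which both had a peak, it was the same peak (from 660976 to 661296 in FLAG-SNAP1 replicate 1), so these genes count as 1 site. LOC112999168, of 3394 bp, had 3.83- and 3.73-fold in FLAG-SNAP2 and 3.58-fold in FLAG-SNAP4 replicate 2, all with the summit inside the gene. No rRNA gene had a peak in FLAG-SNAP3. Each library had 7 to 14 summits in the whole span of the chromosome 13 array, and reads from repeated units are lost in unique mapping, so these counts do not measure binding to rRNA genes in general.

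The rule allowed only summits inside the gene or within 200 bp of it, so short distances were fixed by the selection. Of the 56 snRNA genes, 43 had a summit inside the gene in at least 1 library, 50 within 50 bp, and no further snRNA gene was gained between 200 and 500 bp. Among snoRNA genes the number grew with distance, with 14 inside, 25 within 200 bp and 34 within 500 bp. Within 1000 bp there were 65 snRNA genes and 60 snoRNA genes. The genes nearest to the limit were snoRNA genes, with summits 197, 184 and 161 bp away just inside it, each in 1 library, and 230, 262 and 267 bp away just outside it. Under the same limit of 200 bp, 50 of 104 summits at the 13 genes found in every library were inside the gene. Their median distance from the gene was 5 bp and the largest 138 bp.

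The position of the summit differed between libraries by more than the gene length in many cases. At the 103-bp gene LOC112999865 the summits spanned 109 bp, and at LOC113000068 they spanned 391 bp. Only genes with 2 or more summits outside the gene can show both sides, and there were 31 of them. Summits lay on both sides at 2, LOC113000068 and the 103-bp snRNA gene LOC113001537, which is named for this reason alone. At the other 29 the outside summits lay on a single side. A gene with few outside summits can show a single side without any preference, and a preference was not tested. The annotation used gives no strand, so whether the single side is the promoter side could not be determined.

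**Figure D3:**
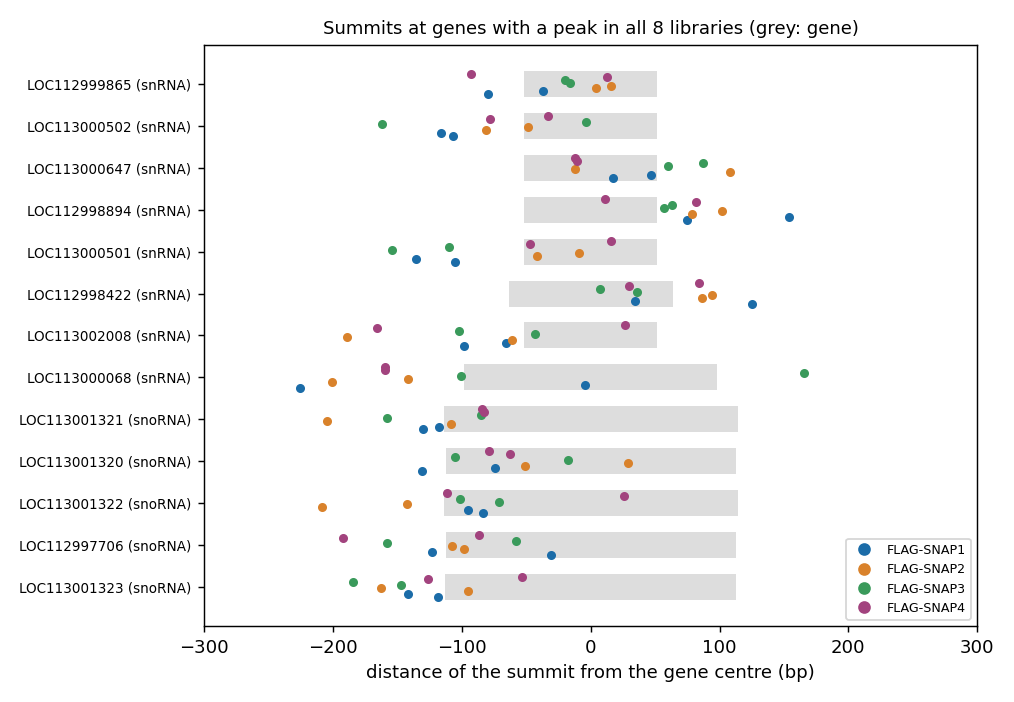
Distance (bp) of each peak summit from the centre of the gene for the 13 genes with a peak in all 8 libraries, with points coloured by TF, 1 point per library and the gene as a grey bar. The x axis runs along the chromosome and not along transcription. Summits fall inside or within 138 bp of the gene, and outside the gene on a single side except at LOC113000068.

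The number of these genes with a peak differed among libraries. There were 43 and 40 in FLAG-SNAP1, 43 and 47 in FLAG-SNAP2, 23 and 17 in FLAG-SNAP3, and 25 and 39 in FLAG-SNAP4. The means were 41.5 ± 2.12, 45 ± 2.83, 20 ± 4.24 and 32 ± 9.90 (SD, n = 2 each), in the order of the 4 TFs. Both FLAG-SNAP3 libraries were below all others, and the FLAG-SNAP4 replicates differed widely. Across the 4 TFs the difference gave p = 0.0190 in an exact permutation test over the 8 libraries, with a Benjamini-Hochberg adjusted p of 0.0571 over 3 tests. It did not pass after adjustment. The smallest p this test can give is 0.00952, and no comparison of 1 TF with 1 other can go below 0.333.

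The libraries also differed in their total number of peaks, with 8426 and 9052 in FLAG-SNAP1, 7937 and 9332 in FLAG-SNAP2, 6590 and 3628 in FLAG-SNAP3, and 5888 and 6856 in FLAG-SNAP4. The depth of sequencing is not in the files, so fewer peaks cannot be told apart from fewer reads. As a share of all peaks of the library, those at the 84 genes made up 0.476 and 0.443% in FLAG-SNAP1, 0.531 and 0.505% in FLAG-SNAP2, 0.351 and 0.471% in FLAG-SNAP3, and 0.409 and 0.571% in FLAG-SNAP4. Both FLAG-SNAP2 libraries were above both FLAG-SNAP1 and both FLAG-SNAP3 libraries, while the range of FLAG-SNAP4 overlapped those of the other 3 TFs. Across the 4 TFs the test did not pass (exact permutation test, p = 0.543, adjusted p = 0.543). The median percentile of the peaks in their library was 52.4 and 62.5 in FLAG-SNAP1, 70.2 and 70.1 in FLAG-SNAP2, 79.9 and 66.4 in FLAG-SNAP3, and 58.8 and 59.9 in FLAG-SNAP4. The FLAG-SNAP2 and FLAG-SNAP3 libraries were above those of the other TFs, but the test did not pass (exact permutation test, p = 0.143, adjusted p = 0.214).

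**Figure D4:**
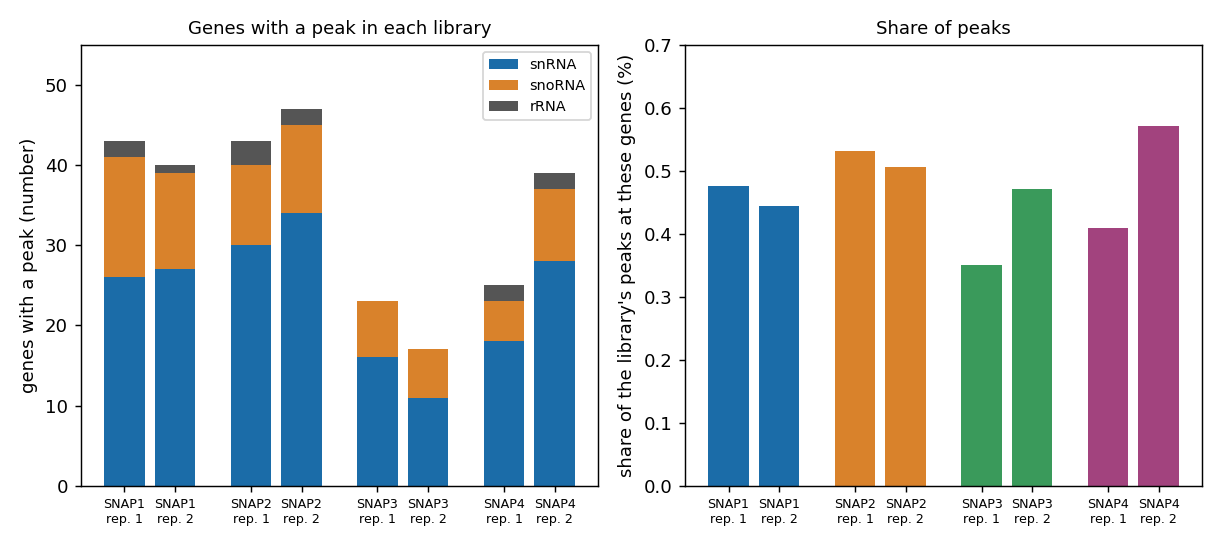
Number of snRNA, snoRNA and rRNA genes with a peak in each of the 8 libraries (left, stacked bars) and the share (%) of all peaks of the library that lie at them (right, 1 colour per TF). The FLAG-SNAP3 bars on the left, at 23 and 17 genes, are the lowest, while the shares on the right lie between 0.351 and 0.571%, with the FLAG-SNAP4 replicates spanning most of that range.

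Replicates of a TF shared only part of these genes. The share over all genes is not given here, so partial sharing cannot be read as a trait of these genes. Called peaks were shared by both replicates at 28 of the 55 genes with a peak in either for FLAG-SNAP1, 31 of 59 for FLAG-SNAP2, 17 of 23 for FLAG-SNAP3 and 19 of 45 for FLAG-SNAP4. With each library reduced to its 3611 strongest peaks FLAG-SNAP3 no longer had the fewest, with 16 genes, against 12 in FLAG-SNAP4, 16 in FLAG-SNAP1 and 19 in FLAG-SNAP2. Of the 84 genes, 13 were found in both replicates of all 4 TFs, 5 in those of 3 TFs, 7 in those of 2, 14 in those of 1 and 45 in those of none. Peaks in both replicates of 1 TF and in no other library occurred at 4 genes. These were LOC112999439 and LOC113000007 for FLAG-SNAP1, LOC113002466 for FLAG-SNAP2 and LOC113000843 for FLAG-SNAP4, with mean fold enrichments of 4.84, 4.43, 3.66 and 4.00. The last 3 of these means lay below those of all 13 genes found in every library. LOC113000007 and LOC113000843 were named for this after their values had been seen. No gene was found only in both replicates of FLAG-SNAP3. Of the 33 genes found in 4 or more libraries, 12 lacked a summit within 200 bp in both FLAG-SNAP3 libraries. The number was 1 for FLAG-SNAP1, 1 for FLAG-SNAP4 and 0 for FLAG-SNAP2. The FLAG-SNAP1 case, LOC113000035, lay under a FLAG-SNAP1 peak in both replicates, with the summit at its neighbour LOC113000057. The FLAG-SNAP4 case, LOC113000057, was overlapped by a peak in FLAG-SNAP4 replicate 2 with its summit at LOC113000035. These 2 cases are thus a lack of a summit and not of a peak. The difference among TFs was not tested, and the FLAG-SNAP3 libraries include the 1 with the fewest peaks.

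Other genes were often close by. Of the 84 genes, 20 overlapped a gene of another class and 28 lay more than 2 kb from every such gene, including 3 of the 13 genes found in all 8 libraries. The isolated snRNA genes had a peak in 15 of 46 cases (32.6%), against 41 of 87 (47.1%) for snRNA genes within 2 kb of another class of gene. Among snoRNA genes, 13 of 1305 isolated genes (0.996%) and 12 of 361 others (3.32%) had a peak. The share was lower at isolated genes in both classes, and what neighbouring genes contribute to it was not tested.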

How the data were processed

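The authors trimmed reads with Trim Galore 0.6.6, used Bowtie2 2.3.4.3 for alignment to Wm82 a4.v1, kept properly paired, uniquely mapped reads (MAPQ above 30) and called peaks per library with MACS2 2.2.7.1 at a q-value of 0.05. No control and no treatment of duplicates is named. The deposited lists hold, for each peak, the summit position, its fold enrichment (a ratio), a score, and −log10 values of q and of the p-value. The score and the −log10 p-value were not used. The study states only a minimum depth for all samples and the files hold none per library, so no counting interval can be given.

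Genes were those annotated by RefSeq for Glycine_max_v4.0, which lists class and length without strand or RNA family. A shift of the genes by 20 kb lowered the number of snRNA genes with a summit to 2, against 56 unshifted; this check of shared coordinates says little for snoRNA genes, with 13 against 25. A gene took its strongest peak with a summit within 200 bp. The 8 genes with a tRNA gene within 500 bp were left out. Members and lists were chosen with earlier results of these data known. The genes named were those found in all 8 libraries, the 2 in most libraries in each family (ties by mean fold enrichment), and all rRNA genes; length groups replaced families, which could not be assigned, and other names were chosen after their values were seen. Promoter motifs could not be searched, and of the planned list of proteins that serve snRNA transcription only TBP1 was matched by symbol, with a summit in 0 libraries. TFs were compared by an exact permutation of the 8 libraries (between-TF sum of squares, 2520 assignments, one-sided by construction), which was tested on simulated data. Each p-value is the share of assignments whose between-TF sum of squares was at least as large as that observed. It rests on 2 replicates of each TF. Alternatives were distance, q-value, overlap of the whole peak, equal numbers of peaks, tRNA neighbours, isolated genes, the replicate block and each library left out; distance from the gene midpoint was added after the data were seen. Python 3.11.15, numpy 2.4.6, pandas 2.3.3 and matplotlib 3.10.9 were used.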

Additional observations from a re-analysis of the deposited data

How the results depend on the processing

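The number of genes with a peak in all 8 libraries was 13. It was 8 with summits within 100 bp, 5 at a q-value of 0.0001, 7 when each library was reduced to its 3611 strongest peaks, and 8 among genes with no protein-coding gene, lncRNA gene or pseudogene within 500 bp, which removes genes by construction. The 3611 strongest peaks gave 46 genes in all. Genes in both replicates then numbered 16 in FLAG-SNAP1, 19 in FLAG-SNAP2, 16 in FLAG-SNAP3 and 12 in FLAG-SNAP4. A q-value of 0.0001 gave 12 for FLAG-SNAP4, and the isolated genes gave 18, 20, 11 and 12 for FLAG-SNAP1 to FLAG-SNAP4. Among snRNA genes of 100 to 105 bp, 2 had a peak in all 8 libraries with summits within 100 bp, 3 at a q-value of 0.0001 and 5 with the strongest peaks. Among snoRNA genes of 203 to 228 bp these were 5, 2 and 2, and 3 with distance from the gene midpoint. With the strongest peaks, 5 of the 12 snRNA genes of 157 to 164 bp and 9 of the 18 of 189 to 198 bp still had one. The snoRNA genes with a peak, 25 in all, numbered 14 at a q-value of 0.0001 and 10 with the strongest peaks. Leaving out each library in turn gave 75 to 84 genes in all and 13 to 15 in every remaining library, the most without FLAG-SNAP4 replicate 1. The 3 tests among TFs passed an adjusted p of 0.05 under none of the alternatives. Whether the same replicate number marked a shared batch could not be determined, since no label gives a batch. With 2 replicates per TF their deviations mirror each other, so a correlation of deviations cannot decide it. It ran from −0.374 to 0.0309, the lowest between FLAG-SNAP3 and FLAG-SNAP4. With a replicate block, the adjusted p was 0.25 for the number of genes, 0.583 for the share of peaks and 0.3125 for the percentile, with 0.0417 as the smallest unadjusted p it allows.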

Other observations

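The snoRNA genes left out for a tRNA gene within 500 bp, 8 in all, each had a summit within 200 bp, 4 of them in all 8 libraries, 2 in 7 and 2 in 5. They were 80 to 90 bp long, a range in which no snoRNA gene without a tRNA neighbour had a peak in more than 1 library. Of the 709 tRNA genes, 678 (95.6%) had a summit in at least 1 library and 492 in all 8. Whether the peaks at these 8 snoRNA genes belong to them or to the tRNA genes was not tested.

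Among miRNA genes, 5 of 659 (0.759%) had a summit within 200 bp in all 8 libraries. This share was below the 0.991% of protein-coding genes and the 1.74% of all genes, and none of these sets was filtered for tRNA neighbours. The 5 miRNA genes were MIR2118A, MIR2118B, MIR5032, MIR5763A and MIR6300. MIR2118A and MIR2118B belong to a family known in legumes for guiding the cleavage of transcripts of NLR immune receptor genes. Whether these peaks belong to the miRNA genes or to their neighbours was not tested.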
